A study of Mus musculus with 21 samples.

Results

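FGF8 was compared with retinoic acid (RA) in a mouse embryonic stem cell line built to make serotonergic neurons. In this line, NesE-Nkx2.2, the nestin enhancer, active in neural progenitors, drives the transcription factor Nkx2.2. Both groups were differentiated for 10 days in sonic hedgehog (SHH), together with FGF8 in 3 samples and with RA in the 3 others, and total RNA came from purified post-mitotic neurons. The driven factor, SHH and the day were thus shared by both groups, and the added agent differed. The samples are titled biological replicates, but separate cultures are not named, so p-values measure the spread between these arrays. The 6 arrays were chosen by their titles from a series of 21 Affymetrix Mouse 430 2.0 arrays in 7 groups of 3. All 18193 genes with a probe set named for them alone were tested, each by the probe set that varied most over the 21 arrays. The other groups were the NesE-Lmx1a line under SHH and FGF8 at day 10 and day 14, the NesE-Olig2 line under SHH and RA at day 8, and wild type cells under FGF8 at day 10 and under RA at day 8. The wild type titles name SHH and the source names do not.

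Serotonergic neurons and visceral motor neurons of the hindbrain arise from the same ventral progenitors, which SHH induces and which express Nkx2.2. Where along the head-to-tail axis such progenitors lie is set by other signals. FGF8 is secreted by the isthmus, the boundary of midbrain and hindbrain, and is known for its part in patterning the rostral hindbrain and midbrain. RA enters cells, binds nuclear receptors on DNA and is known to switch on Hox genes in the caudal hindbrain and spinal cord. Serotonergic neurons of the rostral raphe, close to the isthmus, project mainly to the forebrain, and those of the caudal raphe mainly to the spinal cord.

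Each value is a log2 signal centred by the authors on that probe set's median, so it tells whether an array is high or low for a gene and not how abundant the transcript is. A difference of 1 log2 unit is a doubling. Values for arrays are given in the order of replicates 1 to 3. Differences are FGF8 minus RA, with the standard error (SE) of a limma fit over all 21 arrays. Genes past an adjusted p of 0.05 that differed by 1 log2 unit or more, in either direction, are termed called. Since the variance was pooled over 7 groups, an SE can understate the spread within these 2 groups. In bulk RNA, fewer cells of a type and less RNA per cell cannot be told apart.

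The replicates were unequal in likeness, and replicate 3 stood apart in both groups. Over genes, the centred values correlated at 0.64 between FGF8 replicates 1 and 2, at 0.41 between 1 and 3 and at 0.28 between 2 and 3. In the RA group these correlations were 0.89, 0.64 and 0.66. The mean labelling control signal was 1.43 and 1.25 on FGF8 replicates 1 and 2 and -1.12 on replicate 3, against 1.98, 2.03 and 0.24 on the RA arrays. Counts of gene lists are therefore also given without replicate 3 of both groups wherever they moved. The bioC hybridization controls lay above -1 on all 6 arrays, and on 12 of the 21.

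The arrays of both groups carried the serotonergic signature that their titles state. Tph2, which makes serotonin in neurons, had group means of 5.58 ± 0.99 (SD, n = 3) under FGF8 and 4.43 ± 0.17 under RA, while the means of the 5 other groups ran from -2.58 to 1.20. The serotonin transporter Slc6a4 stood at 6.70 ± 1.43 and 6.44 ± 0.20, against -3.23 to 1.60 in the other groups. Nkx2-2 itself read 0.96, 1.08 and 0.13 on the FGF8 arrays and 1.60, 1.85 and 1.46 on the RA arrays. The FGF8 arrays were all lower, but the difference of -0.92 ± 0.42 was not called (adjusted p = 0.257), and whether this probe set reads the driven transgene is not known here.

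Between the groups 785 of 18193 genes were called, which is 4.31% of those tested. Of these, 301 (1.65%) were higher under FGF8 and 484 (2.66%) were lower. On 760 of the 785 the 3 FGF8 arrays did not overlap the 3 RA arrays, against 22.7% of all genes. Over all genes the FGF8 arrays lay wholly above the RA arrays in 13.2% and wholly below in 9.53%. The median difference over all genes was 0.03, and 3425 of the 18193 genes had an unadjusted p under 0.05. Without RA replicate 1 the number of genes called higher was 189. Without replicate 3 of both groups 662 genes were called, 320 higher and 342 lower, and 455 of them were among the 785. With the variance estimated from the 6 compared arrays alone, 273 genes were called, and 238 of the 785 remained.

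**Figure D1:**
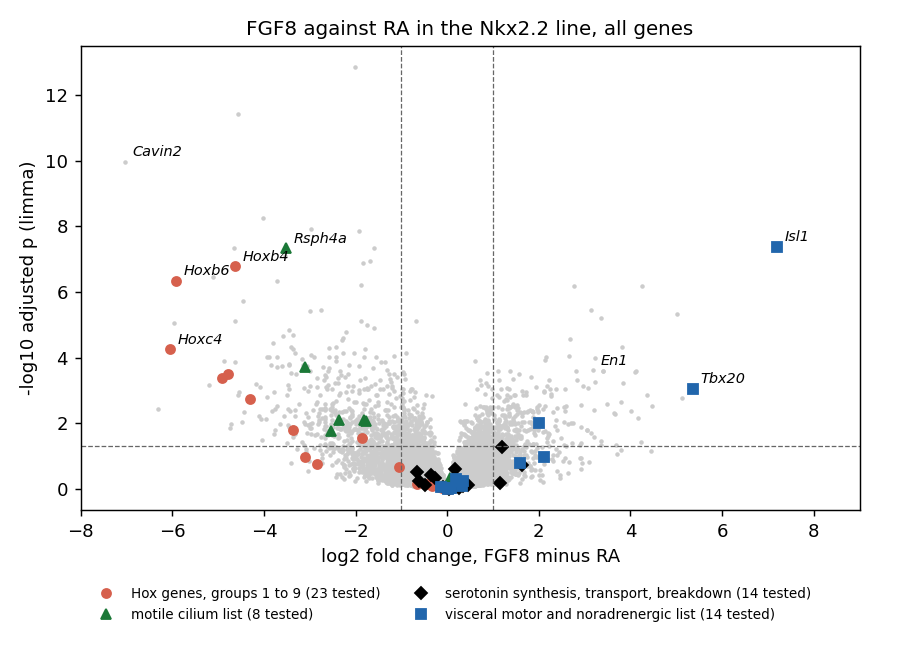
Each point is 1 of 18193 genes, with its log2 difference between FGF8 and RA in the Nkx2.2 line on the x axis and -log10 of the limma adjusted p on the y axis. Dashed lines mark the call thresholds. Coloured symbols show Hox genes (red) near the centre or to its left, 6 of 8 motile cilium genes (green) to the left, Isl1 and Tbx20 (blue) far right, and serotonin genes (black) below the horizontal line.

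Of the 3 genes that mark the comparison, Isl1 had the largest rise of any gene. Isl1, a LIM homeodomain factor of motor and other post-mitotic neurons, read -0.23, 1.26 and 0.67 on the FGF8 arrays and -6.84, -7.04 and -6.01 on the RA arrays. The RA arrays were the lowest of all 21. The difference was 7.20 ± 0.41 (adjusted p = 4.18e-08), and a second probe set gave 6.72. En1, an engrailed factor of the isthmus region that rostral serotonergic neurons also use, read 1.49, 2.05 and 0.60 under FGF8 and -2.31, -1.83 and -1.29 under RA. It rose by 3.19 ± 0.41 (adjusted p = 0.000243). Hoxb4, a Hox gene of the caudal hindbrain and spinal cord, read -0.20, 0.03 and -0.64 under FGF8 and 4.92, 4.09 and 4.06 under RA. It fell by 4.63 ± 0.30 (adjusted p = 1.64e-07), and its other probe set gave -3.61. For all 3 genes the groups were separated by more than the spread of their replicates.

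Hox genes encode homeodomain factors whose paralog groups, numbered from head to tail, are expressed in nested domains along the hindbrain and spinal cord. Under FGF8 5 of the 6 tested genes of paralog groups 4 and 5 were called lower, with a median difference of -4.47 against 0.03 over all genes. Hoxc4 read -2.74, -4.36 and -2.04 under FGF8 and 3.91, 3.21 and 1.87 under RA and fell by 6.05 ± 0.66 (adjusted p = 5.52e-05). Hoxb5 read -0.36, -0.32 and -0.48 under FGF8 and 6.07, 4.97 and 2.54 under RA and fell by 4.91 ± 0.68 (adjusted p = 0.000423). The FGF8 arrays of Hoxb5 were tightly grouped, and the RA arrays were spread, with replicate 3 the least high.

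Hoxa5 read -2.38, -2.75 and -2.17 under FGF8 and 3.19, 2.42 and 0.00 under RA and fell by 4.30 ± 0.71 (adjusted p = 0.00177), although a second probe set at 0.40 did not change. Hoxc5 read -0.16, -0.20 and -0.22 under FGF8 and 5.08, 4.19 and 0.22 under RA. On RA replicate 3 it was thus close to the FGF8 arrays. Its fall of 3.35 ± 0.78 (adjusted p = 0.0162) was not called without FGF8 replicate 2, RA replicate 1 or RA replicate 2 (adjusted p up to 0.0759), and another probe set gave -0.34. Hoxa4, at -1.04 ± 0.44, was not called (adjusted p = 0.209), and only RA replicate 3 stood above the rest. Without replicate 3 of both groups the count stayed at 5 of 6, and with the variance of the 6 arrays alone it was 2 of 6, Hoxb4 and Hoxc4.

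Among paralog groups 6 to 9, 2 of 10 genes were called lower, Hoxb6 and Hoxa9. Hoxb6 read -3.83, -3.82 and -4.15 under FGF8 and 2.75, 2.12 and 1.06 under RA and fell by 5.91 ± 0.42 (adjusted p = 4.52e-07). Hoxa9 read -3.10, -2.73 and -3.80 under FGF8 and 1.52, 2.36 and 0.85 under RA and fell by 4.79 ± 0.64 (adjusted p = 0.000312), but its other probe set gave -0.05. The 8 remaining members lay at or below 0.25 on every FGF8 array, and on the RA arrays only single readings stood out, such as Hoxc6 on replicate 1 at 1.22. Hoxa7, Hoxc8 and Hoxb9 had means of 0.08 ± 0.14, -0.15 ± 0.14 and 0.24 ± 0.63 (SD, n = 3) in the RA group of this line. In the Olig2 line under RA the same genes had means of 5.33 ± 0.14, 6.88 ± 0.81 and 8.10 ± 0.40, and in RA wild type cells 2.79 ± 1.66, 5.27 ± 1.80 and 7.61 ± 0.63, both at day 8. None of 10 genes of groups 10 to 13 was called or had an unadjusted p under 0.05 (3425 of all genes had), and no Hox gene of any group was called higher. Hoxb7 and Hoxb1 spanned at most 0.16 log2 units over all 21 arrays, so their probe sets gave no reading to compare.

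Of the 7 genes of paralog groups 1 to 3, whose domains reach farthest toward the head, 1 was called. Hoxa3 read -0.98, 0.00 and -2.20 under FGF8 and 0.47, 0.50 and 1.45 under RA and fell by 1.87 ± 0.48 (adjusted p = 0.0289). The call was lost without FGF8 replicate 1, FGF8 replicate 3 or any RA replicate (adjusted p up to 0.115), so 0 of the 7 were called without replicate 3 of both groups, and of its 4 probe sets the others gave -1.01, 0.03 and 0.03. Hoxb2 and Hoxb3 split the FGF8 group instead. Hoxb2 read -1.06, 0.00 and -6.77 under FGF8 and 0.33, 0.27 and 0.07 under RA, and Hoxb3 read -0.12, 0.86 and -4.75 and 2.32, 1.90 and 1.09. FGF8 replicate 3 was far below the other arrays for both, and neither difference was called (adjusted p = 0.179 and 0.106).

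**Figure D2:**
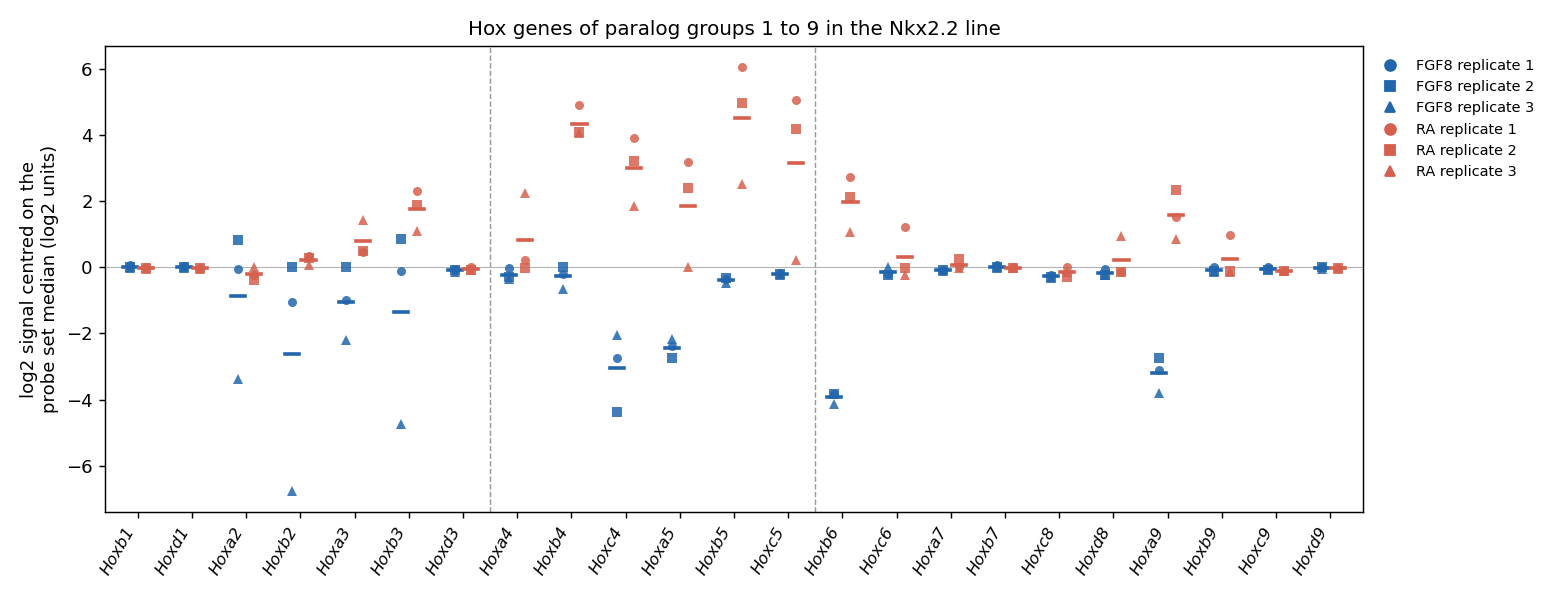
Centred log2 signal of the 23 tested Hox genes of paralog groups 1 to 9 on the 3 FGF8 arrays (blue) and the 3 RA arrays (red) of the Nkx2.2 line, with symbols for replicates and bars for group means. Dashed lines separate groups 1 to 3, 4 and 5, and 6 to 9. The RA arrays lie highest in groups 4 and 5, where Hoxb5 reaches 6.07, while FGF8 replicate 3 drops to -6.77 for Hoxb2.

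The Hox cofactors, which bind DNA beside Hox proteins, showed 1 call among 8 tested. Meis3 read -0.85, -0.93 and -0.95 under FGF8 and -3.15, -2.29 and -1.37 under RA, a rise of 1.36 ± 0.34 (adjusted p = 0.0244). The call was lost without any single FGF8 array or without RA replicate 1 or 2 (adjusted p up to 0.0969). Leaving out replicate 3 of both groups gave 3 rises among the 8, Meis3 with Pbx2 at 1.65 and Pknox2 at 1.02. Meis1 read -1.99, 0.72 and -2.31 and 1.79, 0.91 and 0.46, overlapped between the groups and was not called (adjusted p = 0.12).

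Iroquois homeobox genes, which help to divide the rostral neural tube into domains, gave the 4 calls among 14 hindbrain segmentation factors, all higher under FGF8. They were Irx1, Irx2, Irx3 and Irx5, of 6 Irx genes tested, and Irx4 and Irx6 were not called. Irx1 read 0.88, 0.52 and 0.57 under FGF8 and -2.85, -2.32 and -1.30 under RA, a rise of 2.81 ± 0.37 (adjusted p = 0.000262). Irx2 rose by 1.73 ± 0.28 (adjusted p = 0.00135) and Irx3 by 1.27 ± 0.25 (adjusted p = 0.00594), with no overlap of arrays. Irx5 rose by 1.35 ± 0.34 (adjusted p = 0.027), a call lost without FGF8 replicate 1 or 3 or RA replicate 1 or 2 (adjusted p up to 0.109) and also without replicate 3 of both groups, which left 3 of 14. Irx1 and Irx2 were also called with the variance of the 6 arrays alone. The hindbrain factor Egr2, at -0.31 ± 0.87, was not called (adjusted p = 0.863).

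Of 15 factors of the midbrain and isthmus 3 were called, all higher under FGF8, and they were En1, Pou3f1 and Otx2. Pou3f1, a POU factor, read 0.49, -0.24 and -1.23 under FGF8 and -2.23, -3.45 and -2.46 under RA, a rise of 2.38 ± 0.49 (adjusted p = 0.00815). Otx2, which marks forebrain and midbrain and is absent from normal hindbrain, read 4.95, 0.00 and 6.33 under FGF8 and -0.88, -0.89 and 0.37 under RA. It was high on FGF8 replicates 1 and 3, and replicate 2 lay below RA replicate 3, so the groups overlapped. The rise of 4.22 ± 1.15 (adjusted p = 0.0377) was lost without FGF8 replicate 1 or 3 or RA replicate 1 or 2 (adjusted p up to 0.146), and without replicate 3 of both groups 2 of the 15 were called, En1 and Pou3f1. The isthmus gene En2, close relative of En1, showed no call at -0.10 ± 0.38 (adjusted p = 0.904). None of the 12 forebrain factors was called, and all 12 lay above 0. Dlx1, Dlx2 and Emx1, 3 of the 12, had an unadjusted p under 0.05, against 3425 of all 18193 genes. Several were high on FGF8 replicate 3 alone or with replicate 1. Dlx1, a factor of forebrain GABA neurons, read 3.16, -0.82 and 6.59 under FGF8 and -1.96, -1.87 and -0.59 under RA (adjusted p = 0.0713), and Six6, of the eye field and hypothalamus, read 0.21, 0.01 and 7.11 and -0.01, -0.03 and -0.04 (adjusted p = 0.454).

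Genes of RA handling did not separate the groups as a class, with 1 of 20 called higher under FGF8 and 1 lower. Crabp2, which carries RA to its nuclear receptors, read 0.00, 1.24 and -2.83 under FGF8 and -6.44, -6.07 and -4.48 under RA. It was higher on every FGF8 array and rose by 5.13 ± 0.85 (adjusted p = 0.00172). Rdh10, which oxidizes retinol on the way to RA, read -1.33, -2.55 and -1.02 under FGF8 and 0.12, 0.50 and 1.16 under RA and fell by 2.23 ± 0.52 (adjusted p = 0.0157). That call was lost without FGF8 replicate 2 or RA replicate 3 (adjusted p up to 0.0792). The RA receptor gene Rarb read -0.34, 0.00 and 1.05 under FGF8 and 0.53, -0.21 and -3.14 under RA. Its arrays overlapped, and the difference of 1.18 ± 0.74 was not called (adjusted p = 0.457). Cyp26a1 and Cyp26b1, which degrade RA, had differences of -0.02 ± 0.25 and -0.13 ± 0.43 and were not called (adjusted p = 0.973 and 0.881). Cyp26a1 lay within 0.13 of 0 on all 6 arrays, against a mean of 7.99 ± 0.72 (SD, n = 3) in the Olig2 line under RA. The 95% interval of its difference was -0.56 to 0.52.

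Rarb and Cyp26a1 are known direct targets of RA receptors, and their promoters show the receptor's element in the letters. The element searched was a pair of half-sites in the same direction, each reading AGGTCA or AGTTCA with either A or G as its opening letter, spaced by 5 bases (DR5), on both strands. The sequences are RefSeq promoters on GRCm38.p6, 250 bases before to 50 after the start site, 5′ to 3′ on the gene's strand, with the match in capitals. Rarb lies on the minus strand at chr14:16575427-16575726, and its match starts at -53. Cyp26a1 lies on the plus strand at chr19:37697558-37697857, and its match, on the opposite strand, starts at -32. Hoxb4, on the plus strand at chr11:96318017-96318316, is shown beside them as the Hox marker and holds no match in this window.
Rarb: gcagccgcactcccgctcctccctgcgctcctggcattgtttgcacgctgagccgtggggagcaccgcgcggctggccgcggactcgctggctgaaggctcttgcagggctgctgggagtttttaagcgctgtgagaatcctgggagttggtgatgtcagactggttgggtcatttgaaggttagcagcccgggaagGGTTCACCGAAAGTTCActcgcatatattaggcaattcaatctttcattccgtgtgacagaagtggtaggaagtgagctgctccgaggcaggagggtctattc
Cyp26a1: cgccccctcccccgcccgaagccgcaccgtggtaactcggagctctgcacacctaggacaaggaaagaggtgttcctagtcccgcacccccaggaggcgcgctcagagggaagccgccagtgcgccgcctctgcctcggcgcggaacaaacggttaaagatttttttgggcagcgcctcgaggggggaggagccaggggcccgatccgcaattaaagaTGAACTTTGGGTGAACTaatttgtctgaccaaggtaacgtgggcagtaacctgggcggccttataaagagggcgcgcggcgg
Hoxb4: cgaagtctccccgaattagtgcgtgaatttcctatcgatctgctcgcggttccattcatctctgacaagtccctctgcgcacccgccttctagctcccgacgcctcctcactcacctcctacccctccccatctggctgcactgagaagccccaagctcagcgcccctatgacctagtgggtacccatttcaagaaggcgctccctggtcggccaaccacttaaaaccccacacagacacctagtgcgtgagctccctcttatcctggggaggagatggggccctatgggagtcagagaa
This element was found in 32 of 32851 promoters of the same length (0.097%). Of the tested genes 14452 had a promoter, and 11 of those held the element. Among the called genes with a promoter it occurred in 0 of 230 that were higher and in 1 of 372 that were lower. That gene, Syndig1, was named after its values were seen.

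None of the 17 genes of FGF ligands, receptors and feedback response was called, and 3 had an unadjusted p under 0.05 (3425 of all 18193 genes had). Spry1, a feedback inhibitor of FGF receptors, read -1.07, -0.77 and 0.65 under FGF8 and -3.04, -2.06 and -1.60 under RA. The FGF8 arrays were all higher, and the difference of 1.84 ± 0.58 missed the threshold (adjusted p = 0.0716). Etv4, a transcription factor induced by FGF signalling, had a difference of 0.16 ± 0.33 (adjusted p = 0.813). The phosphatase gene Dusp6, another response gene, had a difference of -0.83 ± 0.72 (adjusted p = 0.647). Its arrays overlapped, with FGF8 replicate 3 at 0.94 above both other FGF8 arrays.

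None of the 14 tested genes for serotonin synthesis, transport and breakdown was called between FGF8 and RA. An unadjusted p under 0.05 was found for 3 of them, against 3425 of all 18193 genes. Tph2 read 5.85, 6.40 and 4.48 under FGF8 and 4.32, 4.62 and 4.36 under RA, a difference of 1.15 ± 1.05 with a 95% interval of -1.09 to 3.38 (adjusted p = 0.667). Slc6a4 read 7.39, 7.67 and 5.06 under FGF8 and 6.31, 6.67 and 6.33 under RA, a difference of 0.27 ± 1.22 with an interval of -2.32 to 2.85 (adjusted p = 0.916). FGF8 replicate 3 was the lowest of its group for both genes, and the intervals do not show that the groups are alike. The vesicular monoamine transporter Slc18a2 was measured more narrowly, at -0.09 ± 0.33 with an interval of -0.80 to 0.62 (adjusted p = 0.899). Ddc, which turns the precursor into serotonin, had a difference of 1.64 ± 0.67 (adjusted p = 0.184), and Gch1, which makes the cofactor of Tph2, of 0.46 ± 0.65 (adjusted p = 0.765). The monoamine transporter gene Slc29a4 read -0.65, -0.51 and -0.37 under FGF8 and -1.99, -1.90 and -1.23 under RA, without overlap. Its difference of 1.20 ± 0.35 came closest to a call (adjusted p = 0.0533). Other settings did call members of the list. Slc29a4 passed with the 12 arrays of high bioC signal (adjusted p = 0.028), without RA replicate 3 (adjusted p = 0.0342) and with genes of small range left out (adjusted p = 0.0353). Ddc passed by the mean of its probe sets, at 2.26 (adjusted p = 0.00313), and with the replicate block (adjusted p = 0.023). Maob, which breaks down monoamines, passed as lower without FGF8 replicate 1, at -1.22 (adjusted p = 0.00285), and array weights called Ddc, Slc29a4 and Tph2 higher. None of the 13 serotonin receptor genes was called, with 2 at an unadjusted p under 0.05, to be read beside the same 3425 of all genes.

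Of 13 serotonergic transcription factors 3 were called, all higher under FGF8. The core factors Gata2, Gata3 and Lmx1b, which maintain the serotonergic programme, were not among them. Their differences were 0.78 ± 0.54, 0.76 ± 0.65 and 0.06 ± 0.48 (adjusted p = 0.519, 0.635 and 0.955). Hmx3 and Hmx2, related homeobox genes best known from the inner ear and hypothalamus, were called. Hmx3 read 3.14, 3.07 and 2.04 under FGF8 and 0.00, -0.01 and -0.03 under RA, a rise of 2.77 ± 0.20 (adjusted p = 6.66e-07). Hmx2 read 3.38, 1.53 and 3.03 under FGF8 and -0.01, -0.03 and -0.02 under RA, a rise of 2.67 ± 0.30 (adjusted p = 8.95e-05). Both were flat on the RA arrays, and in the other 5 groups their means stayed at or below 0.20. Insm1, a zinc finger factor of newborn neurons, rose by 1.49 ± 0.35 (adjusted p = 0.0172), a call lost without FGF8 replicate 3 or RA replicate 3 (adjusted p up to 0.0744), and without replicate 3 of both groups the count was 2 of 13, Hmx2 and Hmx3. Fev, a further member of the list, was not analysed here.

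**Figure D3:**
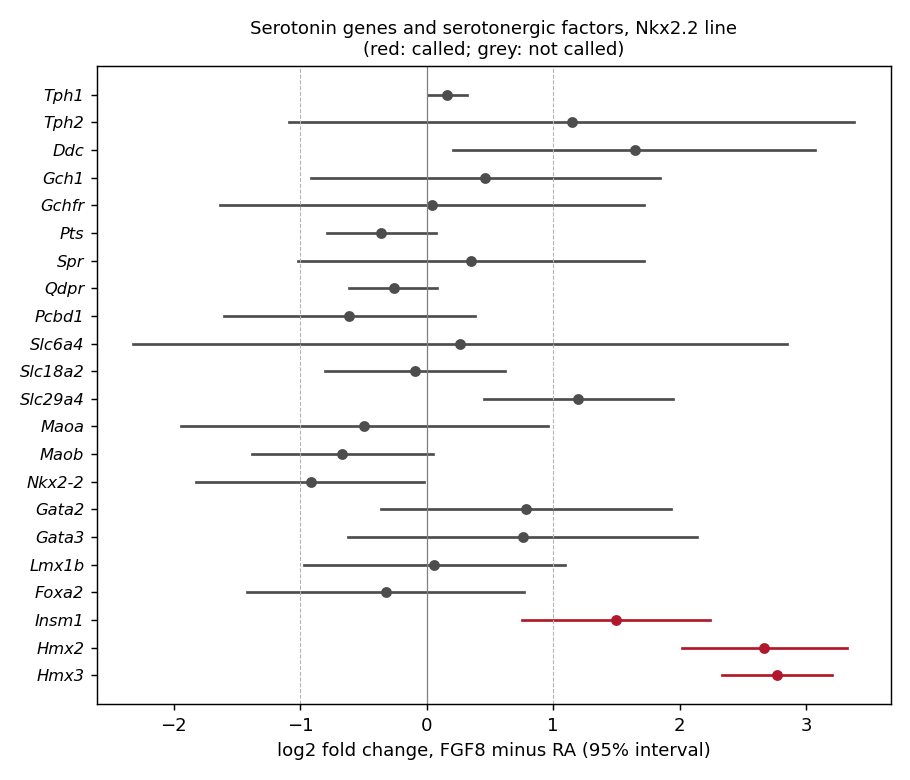
Log2 difference between FGF8 and RA in the Nkx2.2 line, with its 95% interval, for 14 genes of serotonin synthesis, transport and breakdown (top) and 8 serotonergic factors (bottom). Red marks called genes and grey genes that were not called. The interval of Slc6a4 runs from -2.32 to 2.85, while Hmx2, Hmx3 and Insm1 lie right of 0.

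Factors of visceral motor and noradrenergic neurons gave 3 calls among 14 tested, all higher under FGF8. They were Isl1, Tbx20 and Phox2a. Tbx20, a T-box factor of hindbrain visceral and branchial motor neurons, read 1.95, 3.25 and 1.69 under FGF8 and -3.18, -3.19 and -2.86 under RA. No array of either group overlapped the other, and Tbx20 rose by 5.37 ± 0.81 (adjusted p = 0.000893), although the other probe sets gave 4.06 and 0.14. Phox2a, a homeodomain factor of visceral motor and noradrenergic neurons, read 1.19, 2.22 and -0.14 under FGF8 and -1.12, -1.21 and -0.44 under RA, a rise of 2.02 ± 0.43 (adjusted p = 0.00954). Tbx2 and Tbx3, T-box factors also used by these motor neurons, had differences of 2.11 ± 0.74 and 1.59 ± 0.63 and were not called (adjusted p = 0.109 and 0.166). Dbh, which makes noradrenaline, lay within 0.06 of 0 on all 6 arrays. With the variance of the 6 arrays alone Isl1 and Tbx20 stayed called, and without replicate 3 of both groups all 3 did.

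Genes of the cholinergic and motor neuron phenotype moved in the same direction, with 4 of 8 called higher and none lower. Slc18a3, the vesicular acetylcholine transporter, read -0.60, 2.24 and -0.65 under FGF8 and -3.04, -3.30 and -1.82 under RA, a rise of 3.05 ± 0.70 (adjusted p = 0.0156). Ache, which degrades acetylcholine, read 0.25, 0.50 and 0.05 under FGF8 and -2.92, -3.08 and -1.94 under RA, a rise of 2.91 ± 0.51 (adjusted p = 0.00276). Peripherin, Prph, an intermediate filament of peripherally projecting neurons, read 1.36, 1.32 and 1.21 and -1.49, -2.55 and -0.84 and rose by 2.92 ± 0.65 (adjusted p = 0.0131), while its 3 other probe sets lay between -0.01 and 0.03. The growth factor receptor Ret rose by 1.36 ± 0.37 (adjusted p = 0.0373). Choline acetyltransferase, Chat, which makes the transmitter, was above 0.02 only on FGF8 replicate 2, at 1.24, and was not called at 0.44 ± 0.28 (adjusted p = 0.453). On that array Slc18a3 was also far above both other FGF8 arrays. The calls of Slc18a3 (without FGF8 replicate 2, RA replicate 1 or RA replicate 2), Ret (without FGF8 replicate 2 or 3 or RA replicate 2 or 3) and Prph (without RA replicate 2) were lost, at adjusted p up to 0.0646, 0.132 and 0.062. In all, 3 of the 8 were called without replicate 3 of both groups, Ret being lost, and with the variance of the 6 arrays alone only Ache was.

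Somatic motor neuron factors were not called as a set of defining markers. Mnx1 and Lhx3, which define these neurons, had differences of 0.02 ± 0.24 and 0.02 ± 0.11 and were not called (adjusted p = 0.968 and 0.92). Of the 11 tested genes, Lhx1, Nkx6-2 and Onecut2 were higher under FGF8 and Olig1 was lower. Lhx1, a LIM homeodomain factor of many neuron classes, read -0.23, -1.52 and 1.19 under FGF8 and -3.94, -3.96 and -4.05 under RA, a rise of 3.80 ± 0.64 (adjusted p = 0.00219). Nkx6-2, a ventral progenitor factor, rose by 2.57 ± 0.48 (adjusted p = 0.00417), and Onecut2, of newborn motor neurons and others, by 2.22 ± 0.54 (adjusted p = 0.0204). The Onecut2 call was lost without FGF8 replicate 2 or RA replicate 3 (adjusted p up to 0.0896). It gave way to Lhx4 without replicate 3 of both groups, at 2.65 (adjusted p = 0.0374). Olig1, a factor of ventral progenitors and oligodendrocytes, read 0.02, 0.00 and -0.13 under FGF8 and 3.46, 3.44 and 1.33 under RA and fell by 2.78 ± 0.45 (adjusted p = 0.00138).

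Lhx5 was the 1 called gene of 12 ventral interneuron factors. Lhx5, partner of Lhx1 in interneurons, read 0.77, 0.68 and 2.15 under FGF8 and -3.06, -2.57 and -3.08 under RA, a rise of 4.11 ± 0.54 (adjusted p = 0.00027). Sim1, which marks V3 interneurons from Nkx2.2-expressing progenitors, read 1.54, 0.17 and 3.05 under FGF8 and 3.48, 3.82 and 3.21 under RA. The RA arrays were all higher, but the difference of -1.91 ± 0.72 was not called (adjusted p = 0.141). Tal1, a factor of V2b and midbrain GABA neurons, read 3.18, 3.55 and 1.36 under FGF8 and 1.38, 0.83 and -0.39 under RA, overlapped by a narrow margin and was not called at 2.09 ± 0.76 (adjusted p = 0.122).

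Dorsal and intermediate interneuron factors gave 3 rises and 1 fall among 18 tested, none of them called without replicate 3 of both groups apart from the fall. Foxp2 rose by 3.04 ± 0.71, Lmx1a by 3.36 ± 0.95 and Neurog2 by 2.31 ± 0.62 (adjusted p = 0.0165, 0.0444 and 0.035). FGF8 replicate 2 was the lowest FGF8 array for all 3. Olig3, a dorsal progenitor factor, read 0.03, -0.06 and -0.04 under FGF8 and 4.86, 3.20 and 0.77 under RA and fell by 2.97 ± 0.72 (adjusted p = 0.0209), with the RA arrays widely spread. Each of these calls was lost in at least 4 of the 6 omissions of 1 array. For Neurog2 and Lmx1a it was lost without any array but FGF8 replicate 2, for Olig3 without any array but RA replicate 3, and for Foxp2 without FGF8 replicate 1 or 3 or RA replicate 1 or 2. The adjusted p rose up to 0.0752 for Foxp2, 0.147 for Neurog2, 0.17 for Lmx1a and 0.0794 for Olig3. Ferd3l was the 1 called gene of 8 midbrain dopaminergic and floor plate factors and differed by -2.12. That call was lost without FGF8 replicate 2 or 3 or RA replicate 2 or 3 (adjusted p up to 0.138). Without replicate 3 of both groups none of that list was called.

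Genes of GABA synthesis and vesicle loading were called higher under FGF8, with limits given below. Gad1, Gad2 and Slc32a1, which make GABA and load it into vesicles, were the 3 called genes of 10 for GABA, glycine and glutamate transmission. Gad1 read 2.98, 2.76 and 4.03 under FGF8 and -0.76, -1.09 and -0.87 under RA, a rise of 4.16 ± 0.83 (adjusted p = 0.00674), and a second probe set gave 4.09. Slc32a1 read 3.06, 2.89 and 4.0 under FGF8 and -0.41, -0.25 and -0.29 under RA, a rise of 3.63 ± 0.69 (adjusted p = 0.00471), while its 3 other probe sets lay within 0.11 of 0. Gad2 read 1.47, 1.44 and 3.41 under FGF8 and -0.72, -1.05 and -1.34 under RA, a rise of 3.14 ± 0.76 (adjusted p = 0.0203), while its other probe set gave 1.07. By the mean of all probe sets of a gene, 1 of the 10 was called. FGF8 replicate 3 was the highest array for all 3 genes. The Gad2 call was lost without FGF8 replicate 3 or RA replicate 2 or 3 (adjusted p up to 0.0883). Without replicate 3 of both groups only Slc32a1 was called, at 3.30 (adjusted p = 0.0443), and Gad1 stood at 3.79 (adjusted p = 0.054). The glutamate transporter gene Slc17a6 read 0.00, -3.18 and 2.06 under FGF8 and -1.31, -1.19 and -2.18 under RA and was not called (adjusted p = 0.526).

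**Figure D4:**
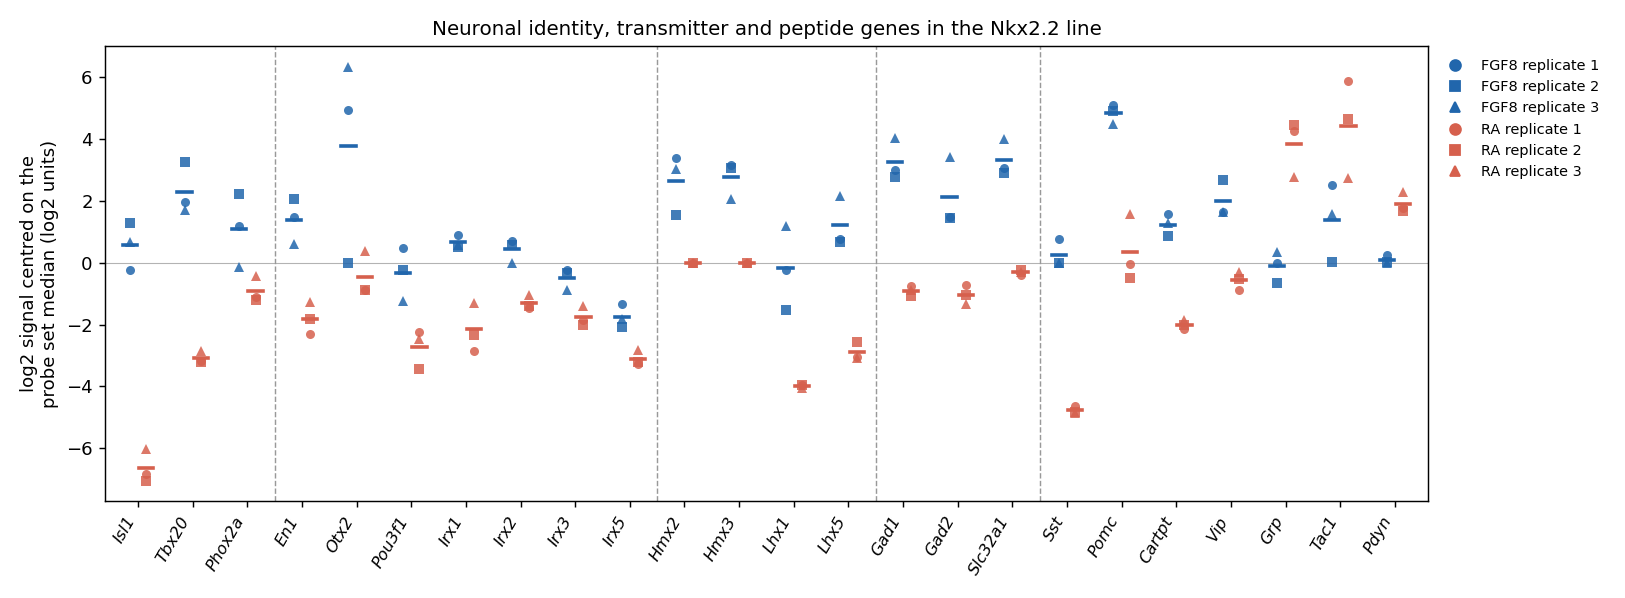
Centred log2 signal of 24 genes on the 3 FGF8 arrays (blue) and the 3 RA arrays (red) of the Nkx2.2 line, with symbols for replicates and bars for group means. Dashed lines separate visceral motor factors, midbrain and hindbrain factors, homeobox factors, GABA genes and neuropeptides. Isl1 on the RA arrays is the lowest point cloud, at -7.04 to -6.01, and Otx2 shows the widest FGF8 spread.

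Neuropeptide precursors changed in both directions, with 4 of 22 called higher under FGF8 and 3 lower, and without replicate 3 of both groups the counts were again 4 and 3. Sst, the precursor of somatostatin, read 0.77, -0.02 and 0.00 under FGF8 and -4.62, -4.81 and -4.85 under RA, a rise of 5.01 ± 0.43 (adjusted p = 4.74e-06). Pomc, the precursor of melanocortins and endorphin, read 5.10, 4.89 and 4.48 under FGF8 and -0.03, -0.51 and 1.57 under RA, a rise of 4.48 ± 0.79 (adjusted p = 0.00299). The FGF8 arrays of both genes lay above every RA array. Cartpt, precursor of the CART peptides, rose by 3.23 ± 0.46 (adjusted p = 0.000568), and Vip, the vasoactive intestinal peptide precursor, by 2.56 ± 0.39 (adjusted p = 0.000929).

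Grp, Tac1 and Pdyn were lower under FGF8. Grp, the precursor of gastrin-releasing peptide, read 0.00, -0.67 and 0.35 under FGF8 and 4.25, 4.46 and 2.78 under RA and fell by 3.93 ± 0.45 (adjusted p = 9.73e-05). Pdyn, the prodynorphin gene, read 0.23, 0.01 and -0.02 and 1.76, 1.65 and 2.29 and fell by 1.83 ± 0.12 (adjusted p = 1.34e-07), on small and even values. Tac1, which encodes substance P and which caudal raphe neurons are known to carry, read 2.51, 0.01 and 1.57 under FGF8 and 5.85, 4.64 and 2.73 under RA. The arrays came close without overlapping. Its fall of 3.05 ± 0.66 (adjusted p = 0.0109) was lost without FGF8 replicate 2 or RA replicate 1 (adjusted p up to 0.0556). Vip and Tac1 were named after their values were seen.

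The somatostatin promoter is the textbook case of the cAMP response element (CRE), and 2 of the 4 peptide genes that rose, Sst and Cartpt, hold it in the window searched. The 8 bases TGACGTCA, which read the same on both strands, were searched in the same RefSeq windows. Sst lies on the minus strand at chr16:23890795-23891094 with the match at -48, and Cartpt on the minus strand at chr13:99900634-99900933 with the match at -112.
Sst: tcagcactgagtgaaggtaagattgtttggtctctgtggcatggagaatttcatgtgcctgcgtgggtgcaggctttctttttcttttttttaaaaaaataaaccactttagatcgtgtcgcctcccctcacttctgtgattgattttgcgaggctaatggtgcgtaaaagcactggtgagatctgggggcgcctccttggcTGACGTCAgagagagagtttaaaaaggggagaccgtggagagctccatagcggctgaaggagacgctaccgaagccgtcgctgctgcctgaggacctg
Cartpt: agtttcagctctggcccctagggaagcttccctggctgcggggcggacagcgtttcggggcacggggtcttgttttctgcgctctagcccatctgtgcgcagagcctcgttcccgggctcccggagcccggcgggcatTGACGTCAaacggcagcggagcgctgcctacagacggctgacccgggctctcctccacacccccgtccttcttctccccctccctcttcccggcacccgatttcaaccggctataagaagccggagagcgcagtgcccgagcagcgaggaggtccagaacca
The element was found in 588 of 32851 promoters (1.79%) and in 422 of the 14452 tested genes with a promoter (2.92%). It occurred in 9 of 230 genes called higher and in 6 of 372 called lower. A match in these letters is a description and not evidence of binding.

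Neurofilament and neuronal cytoskeleton genes were higher under FGF8 in 5 of 14 cases, and all 14 had a difference above 0. Nefm, the middle neurofilament subunit, read -0.44, 0.39 and -0.54 under FGF8 and -3.19, -3.42 and -3.40 under RA, a rise of 3.15 ± 0.27 (adjusted p = 3.63e-06). Nefl, the light subunit, read -0.46, 0.35 and -0.90 under FGF8 and -2.49, -2.54 and -2.40 under RA, a rise of 2.14 ± 0.26 (adjusted p = 0.00012). Tubb3, the neuronal tubulin, rose by 1.30 ± 0.22 (adjusted p = 0.00196), and the filament gene Ina by 1.14 ± 0.23 (adjusted p = 0.00853), which without FGF8 replicate 2 came to 0.96, below the size required. Elavl3, a neuronal RNA-binding protein named after its values were seen, rose by 1.32 ± 0.35 (adjusted p = 0.0346), a call lost in every omission of 1 array but that of FGF8 replicate 3 (adjusted p up to 0.122). Map2, Dcx and Stmn2, which also mark neurons, had differences of 0.57 ± 0.58, 0.42 ± 0.68 and 0.64 ± 0.19 and were not called. The count was 4 of 14 without replicate 3 of both groups, Elavl3 being lost. The mean of the list was -0.47 to 0.12 on the FGF8 arrays and -1.39 to -1.05 on the RA arrays. Of 17 cell cycle genes 0 were called and none had an unadjusted p under 0.05, but 14 lay below 0. Their median difference was -0.15, against 0.03 over all genes, and the list means overlapped, at -0.39 to 0.06 and -0.41 to 0.32.

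Of 133 genes in 5 lists of connectivity and excitability 9 were called (6.77%), against 4.31% of all genes. Kcnj16, a potassium channel, and P2rx3, an ATP-gated channel, were outside these lists and are not in that share. They were also called, at -5.12 ± 0.35 and 4.24 ± 0.31. Among 35 axon guidance ligands and receptors Robo1, a Slit receptor, rose by 1.38 ± 0.24 (another probe set gave 0.04) and Sema3d by 1.90 ± 0.46, and the ephrin Efnb3 fell by 2.04 ± 0.35 (adjusted p = 0.00308, 0.0201 and 0.0023). Among 19 cadherins and protocadherins Pcdh11x rose by 3.21 ± 0.59, and Cdh4 and Cdh6 differed by -1.53 ± 0.37 and -1.31 ± 0.34 (adjusted p = 0.004, 0.0205 and 0.0284). Cacna2d3, a calcium channel subunit, was the 1 called gene of the 29 ion channels listed, with a rise of 2.12 ± 0.33 (adjusted p = 0.00114). The GABA receptor subunit Gabrb2 rose by 1.46 ± 0.34 and the nicotinic subunit Chrna5 fell by 1.61 ± 0.35 (adjusted p = 0.0157 and 0.0107), from 27 ionotropic receptors. None of 23 synaptic vesicle genes was called, with 2 at an unadjusted p under 0.05 (3425 of all 18193 genes had). The calls of Sema3d (without FGF8 replicate 3 or RA replicate 1), Cdh4 (without FGF8 replicate 1 or 2 or RA replicate 3), Cdh6 (without FGF8 replicate 2 or any RA replicate) and Gabrb2 (without FGF8 replicate 1 or 2 or RA replicate 1 or 3) were lost, at adjusted p up to 0.0787, 0.1, 0.126 and 0.073. These counts differed without replicate 3 of both groups. Axon guidance then gave 0 higher and 4 lower (Efnb3, Robo3, Sema3a and Unc5d), with Robo1 at 0.997, just under the size required. Ionotropic receptors gave 1 higher (Gabrb2) and 4 lower (Chrna7, Gabra5, Gabrg1 and Glra1), cadherins 2 higher (Cdh8 and Pcdh11x) and 1 lower (Cdh4), and ion channels 2 higher (Cacna2d3 and Kcnh2).

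Signalling genes apart from RA and FGF showed 4 calls, to be read beside the 4.31% of all genes that were called. Bmp7, Bmp5 and Id4, a response gene, were higher under FGF8 among 20 genes of the BMP and TGF-beta pathway, by 2.73 ± 0.75, 2.19 ± 0.56 and 1.16 ± 0.26 (adjusted p = 0.041, 0.0289 and 0.0121). Their calls were lost without FGF8 replicate 1 or 3 or RA replicate 1 or 2 (Bmp7), without FGF8 replicate 3 or RA replicate 1 or 2 (Bmp5) and without FGF8 replicate 2 (Id4), at adjusted p up to 0.154, 0.0972 and 0.0589. Bmp7 and Id4 were called without replicate 3 of both groups. Other probe sets gave 1.165 and 0.855 for Bmp5, 1.785 and 2.252 for Bmp7, and 0.691 and 0.983 for Id4. Wnt5b fell by 2.28 ± 0.46 (adjusted p = 0.00744) and was the only call among 26 Wnt genes, and its other probe set gave -1.05. None of 10 hedgehog pathway genes was called, with 2 at an unadjusted p under 0.05 (3425 of all 18193 genes had), and both groups received SHH.

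Motile cilium genes, which ependymal and other ciliated cells use to move fluid, were lower under FGF8 in 6 of 8 cases. Rsph4a, a radial spoke protein, read 0.99, 0.01 and -0.03 under FGF8 and 3.50, 3.87 and 4.14 under RA and fell by 3.51 ± 0.20 (adjusted p = 4.64e-08). Tekt1, a microtubule protein of the axoneme, read 0.74, -0.02 and -0.14 under FGF8 and 2.67, 2.67 and 4.52 under RA and fell by 3.09 ± 0.39 (adjusted p = 0.000198). Foxj1, the transcription factor that switches on motile cilia, read 1.06, -0.01 and -0.48 under FGF8 and 1.78, 2.17 and 4.25 under RA. RA replicate 3 was the highest and FGF8 replicate 1 the nearest to the RA arrays. Foxj1 fell by 2.54 ± 0.59 (adjusted p = 0.0166), lost without FGF8 replicate 2 or 3 or RA replicate 3 (adjusted p up to 0.0707).

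The other falls of the cilium list were Dnah9 at -2.37 ± 0.48, Ccdc39 at -1.81 ± 0.37 and Rsph1 at -1.78 ± 0.37 (adjusted p = 0.00814, 0.00788 and 0.00835). A further probe set of Dnah9 gave -0.25, however, and those of Ccdc39 gave -0.22 and 0.03. The list was drawn up after these data had been seen, and Foxj1 and Rsph1 were named after their values were seen. Its mean was 0.07 to 1.01 on the FGF8 arrays, 2.01 to 2.91 on the RA arrays, 2.15 to 2.50 in the Lmx1a line at day 14, and at most 0.85 on all others. Without replicate 3 of both groups 2 of the 8 were called, as with the variance of the 6 arrays alone.

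Markers of other cell types were checked beside these results. Of 8 astroglial markers Aldh1l1 alone was called and fell by 2.27 ± 0.65 (adjusted p = 0.048), a call lost without any RA array or FGF8 replicate 2 or 3 (adjusted p up to 0.177), and its other probe set gave 0.02. Gfap lay within 0.13 of 0 on all 6 arrays, and Aqp4 differed by -0.01 ± 0.44 (adjusted p = 0.99). The mean of the astroglial list was -0.15 to 0.85 on the FGF8 arrays and 1.20 to 1.35 on the RA arrays, so it moved in the same direction as the cilium list and opposite to the neurofilament list. Its part in those results was not tested. Mbp, a myelin protein gene, fell by 3.93 ± 0.64 (adjusted p = 0.00152), but its 8 probe sets ran from -3.93 to 0.82, and Sox10, Pdgfra, Mog and Mag were not called. None of 9 mesenchymal, 7 endothelial and blood, 5 microglial, 6 neural crest, 7 pluripotency, 10 endodermal or 13 progenitor genes was called. When replicate 3 of both groups was left out, the astroglial call was Slc4a4, at -3.06, in place of Aldh1l1, and the epithelial keratins Krt8 and Krt18 were called higher, at 5.47 and 4.43.

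The largest changes that belong to none of these lists were mostly falls. Cavin2, a coat protein of caveolae, read 0.02, -0.66 and -0.02 under FGF8 and 6.43, 6.48 and 7.51 under RA and fell by 7.03 ± 0.25 (adjusted p = 1.07e-10), more than any other gene, and its 2 further probe sets gave -6.01 and -4.99. Kcnj16, an inward rectifier potassium channel, read 0.81, 0.00 and -0.05 under FGF8 and 4.93, 5.41 and 5.78 under RA and fell by 5.12 ± 0.35 (adjusted p = 3.39e-07). Both genes were flat under FGF8 and uniformly high under RA. Ecrg4, a secreted peptide precursor, differed by -6.32 ± 1.15, C1qtnf3, a secreted C1q-related protein, by -5.96 ± 0.55, Calml4, a calmodulin relative, by -5.19 ± 0.76 and the peptide transporter Slc15a2 by -4.87 ± 0.58 (adjusted p = 0.00367, 8.64e-06, 0.000695 and 0.000125). Another probe set of Slc15a2 gave 0.41. The rises of this kind were P2rx3, an ATP-gated channel of sensory neurons, at 4.24 ± 0.31, Gm16551 at 4.37 ± 0.70 and D930028M14Rik at 4.13 ± 0.53 (adjusted p = 6.56e-07, 0.00136 and 0.000257).

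Wild type cells gave a second FGF8 to RA comparison, without the Nkx2.2 transgene. In it day 10 was set against day 8, so agent and day cannot be told apart there. Of the 785 genes called in the Nkx2.2 line 551 had the same sign in wild type. The share of all genes with the same sign was not computed, so nothing particular to the called genes can be read from this count. Over all genes the differences correlated at 0.32, across genes that are not independent replicates. Tbx20 was close in both, at 5.37 ± 0.81 in the line and 6.50 in wild type, and Hoxc4 at -6.05 ± 0.66 and -5.95. The difference between lines, tested as an interaction, was called for 796 genes (4.38%), 2.6% with a positive and 1.78% with a negative value. Of the 796, 256 were among the 785. The interaction reuses the arrays of the line, so this overlap is not independent support, nor are interactions of genes picked by their call there. The count of 796 moved when single arrays were left out. Of the wild type FGF8 arrays, it was 404 without replicate 1, 1516 without replicate 2 and 411 without replicate 3. Of the wild type RA arrays, it was 498 without replicate 1, 548 without replicate 2 and 1153 without replicate 3. Leaving out 1 array of the Nkx2.2 line gave 558 to 938.

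Among called genes of the Nkx2.2 line, Sst, Gad1 and Lhx1 had wild type differences of -0.54, -1.22 and -1.99, and the interaction was 5.55 ± 0.61, 5.38 ± 1.17 and 5.79 ± 0.91 (limma adjusted p = 0.000109, 0.0166 and 0.00233). For Sst the means were -4.76 ± 0.12 (SD, n = 3) in the RA group of the line and 3.86 ± 0.58 in RA wild type cells. Hmx3 and Kcnj16 differed by 0.17 and 0.05 in wild type, with interactions of 2.59 ± 0.29 and -5.17 ± 0.50 (adjusted p = 0.000115 and 2.29e-05). Hoxb5 fell by 8.86 in wild type, and its interaction of 3.95 ± 0.96 was called (adjusted p = 0.0274), though not without replicate 1 or 2 of the FGF8 group of the line or, in wild type, FGF8 replicate 1 or 3 or RA replicate 1 (adjusted p up to 0.0794). En1 differed by -0.04 in wild type, with an interaction of 3.23 ± 0.58 (adjusted p = 0.00566).

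**Figure D5:**
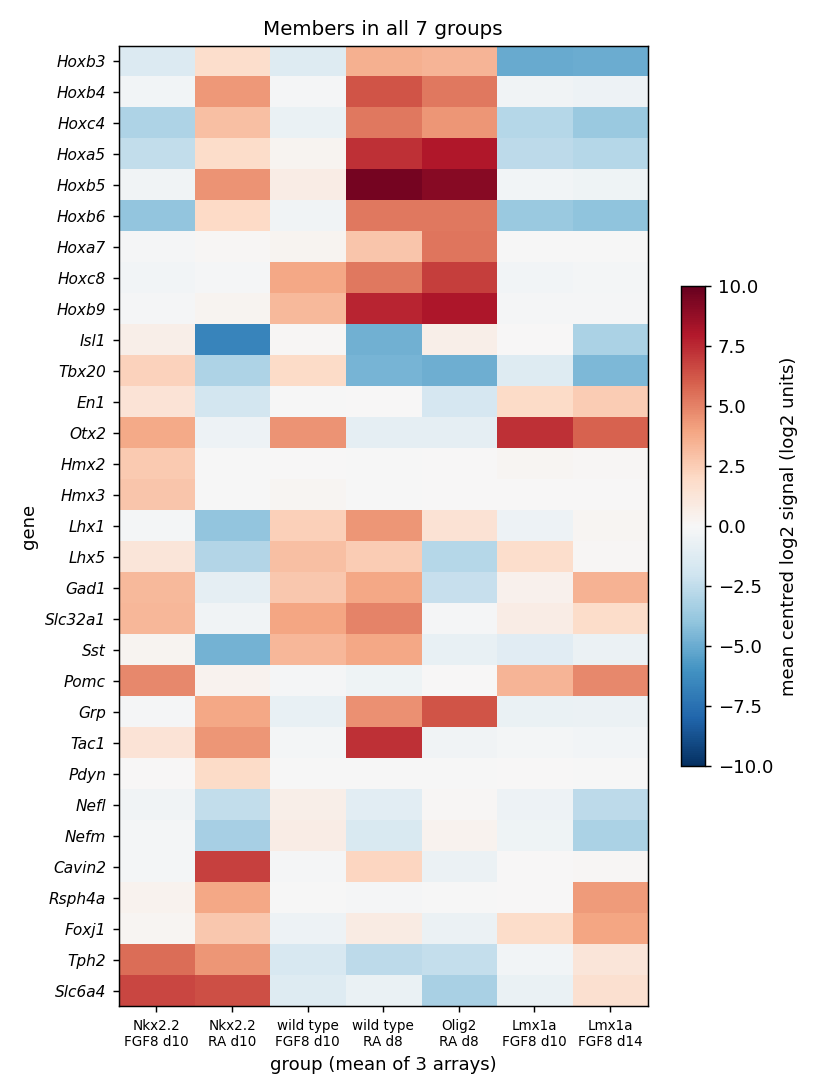
Mean centred log2 signal of 31 genes in the 7 groups of 3 arrays, from blue (low) through white (at the probe set's median) to red (high). The first 2 columns are the groups compared. Hoxb5 reaches 9.58 in RA wild type cells and 4.52 in the RA group of the line, and Rsph4a is high in that RA group and in the Lmx1a line at day 14.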

How the data were processed

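The data are 21 Affymetrix Mouse 430 2.0 arrays, each hybridized with cRNA from 2 ug of total RNA, in 7 groups of 3. The deposited values are log2 signals made by the authors with GCRMA, per the submitters' processing notes; the version and the genome build were not given in the sources used here. Deposited values are also centred per probe set. No row has over 13 values on either side of 0, and an exact 0 stands in 79.2% of rows, which a median over 27 arrays would give; 6 of those arrays were not used here. Levels and detection can therefore not be read, no filter on low signal was possible, and the number of arrays limits the precision.

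Of 45101 probe sets 64 were controls, 34945 carried 1 gene symbol, 932 several and 9160 none in the platform annotation. Each of the 18193 genes was taken by the probe set that varied most (SD over 21 arrays); 9010 had more than 1. In R 4.3.3, limma 3.58.1 fitted 1 mean per group over all 21 arrays with eBayes (14 residual and 1.11 prior degrees of freedom) and Benjamini-Hochberg adjustment over all genes. The difference between lines was (FGF8 minus RA in the Nkx2.2 line) minus the same in wild type. The replicate numbers were not used as a pairing in the main fit, and whether they pair the samples is not known.

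Named genes were Isl1, En1, Hoxb4 and Nkx2-2, the 10 largest rises and 10 largest falls without overlapping arrays, all called members of the patterning, RA, FGF, serotonin, motor neuron and ventral interneuron lists, and up to 4 called members by p of every other list. The comparison, the gene lists and this rule were chosen with earlier results of these data known. Alternatives covered the replicate block, the arrays fitted, variance moderation, array weights, scaling, the probe sets of a gene, a filter on genes with a small range, thresholds and each array left out. A fit to the 12 arrays with bioC above -1, fits to the 6 arrays with the block or with trend and robust moderation, and omission of replicate 3 of both groups were chosen after seeing the data. Promoters are RefSeq entries of GRCm38.p6, matched by symbol.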

Additional observations from a re-analysis of the deposited data

Results flagged for a closer look

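For 48 named genes the difference between FGF8 and RA in the Nkx2.2 line itself differed from that in wild type cells, by the limma interaction (adjusted p under 0.05 and at least 1 log2 unit either way). Each value below is the Nkx2.2 line's FGF8 minus RA difference minus that of wild type. A positive value thus says that FGF8 stood higher against RA in the line than in wild type, where agent and day cannot be told apart. Chance alone gives some such flags, and 4.38% of all genes were called. Most of the 48 were named for their difference in the line, and the interaction reuses those arrays. The share over all genes is therefore no measure of how many flags to expect among them.

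Genes of transmitters, peptides, transporters and channels had values of both signs. Those above 0 were Sst at 5.55, Gad1 at 5.38, Slc32a1 at 4.69, Tac1 at 4.51, Pomc at 4.18, Cacna2d3 at 3.05 and Slc29a4 at 2.38. Tac1 was lower under FGF8 in the line, and in wild type it was lower still. Negative values in these classes were -5.17 for the channel gene Kcnj16, -4.26 for the peptide transporter gene Slc15a2, -3.99 for Chrna5 and -1.84 for Pdyn.

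Patterning and neuronal identity factors gave 5.79 for Lhx1, 4.85 for Foxp2, 3.62 for Lhx5, 3.57 for Pou3f1, 3.23 for En1, 2.64 for Hmx2, 2.59 for Hmx3, 2.56 for Irx1, 2.28 for Isl1 and 2.01 for Irx2. The negative values were -4.35 for Olig3, -3.85 for Sim1 and -2.80 for Olig1. Hox genes gave 6.43 for Hoxa4, 4.07 for Hoxb9, 3.95 for Hoxb5, 2.66 for Hoxa3 and 1.80 for Hoxb4, so each of these 5 was less far below RA in the line than in wild type. The RA genes gave 6.42 for Rarb and -3.80 for Cyp26b1.

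Cilium genes and genes high in the RA group of the line gave -5.17 for Kcnj16, -4.78 for Cavin2, -4.64 for Cfap52, -4.48 for Gm19935, -4.26 for Slc15a2, -3.95 for Sh2d4a, -3.78 for Cfap126, -3.59 for Rsph4a, -3.13 for Tekt1, -2.91 for Mlc1, -2.03 for Ccdc96 and -1.95 for Rsph1. The remaining values were 3.97 for the filament gene Prph, 3.89 for Cited1, 2.72 for Mab21l1, 2.57 for Elavl3, 1.94 for Camk2n1, 1.80 for Ina and 1.37 for Id4.

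Of the 48, 37 stayed called in every omission of 1 of the 12 arrays behind the interaction, and 35 stayed called with the variance of those 12 arrays alone. Cfap126, Hoxa3, Hoxb4, Hoxb5, Id4, Isl1, Olig3, Pomc, Prph, Rsph1 and Sim1 lost their call in at least 1 omission, at adjusted p up to 0.11. Each lost it without wild type FGF8 replicate 1 or replicate 3, and all but Cfap126 also without at least 1 array of the line.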

How the results depend on the processing

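Of the 785 calls (301 higher, 484 lower), the count came to 273 (118 and 155) with only the compared arrays, 180 (81 and 99) with those and trend and robust moderation, 459 (193 and 266) after quantile normalization, 458 (196 and 262) with the 12 arrays of high bioC signal, 405 (138 and 267) at an adjusted p under 0.01 and 1778 (692 and 1086) with array weights, whose estimation did not converge. Without a size threshold 1251 genes passed, 570 of them higher. Leaving out 1 array gave 573 to 829 calls, 189 to 407 higher and 329 to 482 lower. The 796 calls of the difference between lines came to 3502 with array weights, 371 after quantile normalization, 235 at an adjusted p under 0.01 and 404 to 1516 with 1 array left out. Why the counts moved was not tested. The replicate numbers were not taken as a pairing in the main fit. Residuals of same-numbered arrays correlated at -0.13, 0.27 and 0.12, and those of differently numbered arrays at -0.288 to 0.175. Whether same-numbered arrays were processed together is not known. With the replicate block the counts were 790 (305 and 485) and 767, and 747 of the 785 were shared. In the 6 arrays alone with the block limma called 0 genes, 0 higher and 0 lower, while 3218 had an unadjusted p under 0.05.

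Of 78 named calls 75 remained with the block, 57 after quantile normalization, 50 with the high bioC arrays, 32 with only the compared arrays, 58 without replicate 3 of both groups and 60 to 67 with 1 array left out. Signs turned in 2 called genes, both on probe sets without a name suffix: Slc15a2 at 0.41 and Aldh1l1 at 0.017. Uncalled genes also turned. With 1 array left out, Slc6a4 ran from -0.215 to 1.087 (below 0 without FGF8 replicate 1 or 2), Lmx1b from -0.491 to 0.841 (below 0 without FGF8 replicate 1 or 2 or RA replicate 1), Slc18a2 from -0.293 to 0.296 (above 0 without FGF8 replicate 3), Cyp26a1 from -0.051 to 0.034 (above 0 without RA replicate 1) and Hoxb9 from -0.506 to 0.04 (above 0 without RA replicate 1). Without replicate 3 of both groups Slc18a2 came to 0.283 and Rarb to -0.33. Slc18a2 also came to 0.578 after quantile normalization and to 0.172 with array weights, which gave 0.005 for Cyp26a1 and 0.008 for Cyp26b1.

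Signal over background is not known for centred values, so detection of a gene near 0 on all arrays is not known. With 3 arrays a group and a variance pooled over 7 groups, calls lost in the 6 arrays alone are the least certain.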

Other observations

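Further axonemal and cilium-associated genes, chosen after their values were seen, lay high both in the RA group of the Nkx2.2 line and in the Lmx1a line at day 14 and low under FGF8 in the Nkx2.2 line. Cfap52, an axonemal protein, had means of -0.01 ± 0.09 (SD, n = 3) under FGF8, 4.65 ± 0.46 under RA and 4.25 ± 0.36 in the Lmx1a line at day 14, and fell by 4.66 ± 0.27 between the compared groups (limma adjusted p = 4.55e-08). Cfap126, Spag6l and Mlf1 differed by -4.17 ± 0.60, -2.27 ± 0.23 and -2.31 ± 0.49 (adjusted p = 0.000645, 2.47e-05 and 0.00954). Of 25 tested genes with a Cfap symbol 5 were called lower and none higher, against 2.66% of all genes called lower. The Cfap median was only -0.09. None of 14 Ift genes, which also serve primary cilia, was called, and their median was -0.19. Mlc1, a membrane protein of astrocytes, shared the pattern, with means of -0.08 ± 0.12 under FGF8, 3.81 ± 0.45 under RA and 3.59 ± 0.71 in the Lmx1a line at day 14.

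Other falls were also chosen after their values were seen, and their levels in the 2 other RA groups, both at day 8, are given beside them. Rec8, a meiotic cohesin subunit, had means of -0.02 ± 1.21 under FGF8 and 4.61 ± 0.50 under RA in the Nkx2.2 line, and of 5.30 ± 0.31 in the Olig2 line and 4.0 ± 0.14 in wild type cells under RA. It fell by 4.62 ± 0.42 (adjusted p = 7.59e-06). Mageb16, a MAGE family gene, and Trap1a, a tumour antigen gene, differed by -4.73 ± 1.01 and -4.63 ± 0.56 (adjusted p = 0.0102 and 0.000132) and had means of 3.30 ± 0.03 and 3.50 ± 0.12 in the Olig2 line and 2.13 ± 0.54 and 2.40 ± 0.87 in wild type cells under RA. Of 12 tested genes with a Mage symbol Mageb16 was the 1 called, and their median difference was 0.04. The interferon-inducible genes Ifitm3 and Ifi35 differed by -4.07 ± 0.82 and -4.43 ± 0.83 (adjusted p = 0.00723 and 0.0045). Their means were 1.85 ± 0.24 and 0.77 ± 0.74 in the Olig2 line and 2.59 ± 1.01 and 0.62 ± 1.56 in wild type cells under RA. Ifitm3 was the 1 called of 7 Ifitm genes, whose median was 0.01. Neurog3, a proneural factor, fell by 3.79 ± 0.59 (adjusted p = 0.00114) on 1 of its probe sets, and the other gave -0.98. Its means were 0.88 ± 1.21 in the Olig2 line and 0.97 ± 0.87 in wild type cells under RA. Among rises, Mab21l1 stood at 3.81 ± 0.41, C1ql1 at 3.83 ± 0.55, Cited1 at 3.41 ± 0.44 and Camk2n1 at 3.36 ± 0.30 (adjusted p = 4.85e-05, 0.000572, 0.000263 and 6.04e-06). The rises too were chosen after their values were seen.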
